A study of Mus musculus with 4 samples.

Results

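Long intergenic noncoding RNAs (lincRNAs) are transcripts from stretches of the genome between protein-coding genes that do not code for a protein. Some act in the nucleus on chromatin or nuclear bodies, many are made in only a few cell types, and most are present at lower levels than messenger RNAs. The array used here carried 60-base probes to mouse loci that its design names by position alone, with a suffix for the forward (_F) or reverse (_R) strand. Of 56605 non-control probes, 4276 carried such a name on an autosome, and 2459 of them passed the selection: the scanner software had marked them well above background on 2 or more arrays. They belonged to 2304 of 3906 named strands. The 174 probes of the same kind on chromosome X were outside the selection.

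RNA came from tumours of 4T1, a mouse mammary carcinoma line, grown in untreated BALB/C mice. Cells were sorted by the ALDEFLUOR reaction, which marks aldehyde dehydrogenase (ALDH) activity, into fractions of low and high activity. The labels mark the fractions ALDH(-) and ALDH(+) and give 2 zeitgeber times, ZT0 and ZT12, which are hours counted from the start of the light phase. There was 1 array (one-colour, Agilent) for each combination of fraction and time, without replicates, and how many mice stood behind it was not given in the sources used here. A level below is a probe's log2 signal less the array's own 75th percentile, and a difference is between 2 such levels of 1 probe.

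The 75th percentile of the signal ranged from 156.3 to 458.8, and between 55.8% and 60.6% of spots were well above background. Slide and time coincided, with the ZT0 pair on 1 slide and the ZT12 pair on another, and cannot be told apart. The ZT0 ALDH-low and ZT12 ALDH-high arrays both lay at position 1_1 of their slides, and the other arrays at position 1_2. A difference that is opposite at the 2 times therefore cannot be told apart from array position. The 75th percentile used for scaling followed position, at 213.6 and 156.3 at 1_1 and 300.6 and 458.8 at 1_2. Spike-in slopes also followed position: 0.873 and 0.789 at 1_1, outside the scanner software's range, and 0.956 and 0.944 at 1_2. In bulk samples, fewer cells of a type and less RNA per cell cannot be told apart.

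The labels name 4T1 cells, and 11 of 12 epithelial and luminal markers passed the filter, with Elf3 above background on no array. Their summed linear level (signal over the array's 75th percentile) was 187.1, 11.9, 84.9 and 89.5 on the ZT0 ALDH-low, ZT0 ALDH-high, ZT12 ALDH-low and ZT12 ALDH-high arrays. Markers of blood cells were present as well. In the same order of arrays, 10 of 10 T and NK cell markers passed the filter and summed to 40.9, 17.0, 4.43 and 52.6, and 7 of 7 B cell markers to 27.7, 5.19, 1.59 and 36.4. The 7 of 7 macrophage markers summed to 185.5, 117.7, 112.1 and 229.0. These 3 lists were all high on the position 1_1 arrays. So was Hba-a1, an alpha globin gene of red blood cells named after its values were seen, with levels of 9.19, 1.33, 1.46 and 7.62. Pan-leukocyte markers, 6 of 6, summed the other way, to 196.6, 907.1, 579.9 and 276.6. The 10 of 10 neutrophil markers summed to 2283, 3531, 2092 and 3114, with S100a9 the largest term on each array. At ZT0 the sum was higher in ALDH-high cells, and 7 of 10 markers were at least 2-fold higher. At ZT12 the sum was again higher in ALDH-high cells, but most of the list ran otherwise. There 6 markers were at least 2-fold lower and 2, S100a9 and Csf3r, at least 2-fold higher. Fibroblast markers, 7 of 7, summed to between 13.7 and 24.8, and only 2 of 5 endothelial markers passed, summing to between 0.432 and 0.751. The part of these cells in the differences below was not tested.

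The probes below are those whose ALDH difference diverged most between the 2 times, and each is shown as deposited, 5′ to 3′, with its longest unbroken run of A and G in capitals. Positions are in mm9, the build the file headers name, and _F probes lie on the plus strand and _R probes on the minus strand. The first 5 were high at position 1_1, in ZT0 ALDH-low and ZT12 ALDH-high cells.
chr4:33375464-33377138_R: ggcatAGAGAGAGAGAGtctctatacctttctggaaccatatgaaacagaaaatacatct
chr5:125205454-125209470_F: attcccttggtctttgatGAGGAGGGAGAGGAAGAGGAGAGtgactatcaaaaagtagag
chr1:173250734-173259306_R: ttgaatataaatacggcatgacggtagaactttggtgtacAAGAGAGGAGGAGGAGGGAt
chr4:98943050-98959998_R: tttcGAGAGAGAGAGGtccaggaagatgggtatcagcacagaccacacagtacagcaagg
chr13:73472571-73483846_F: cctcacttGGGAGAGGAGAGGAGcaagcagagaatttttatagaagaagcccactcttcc
The next 5 were high at position 1_2, in ZT0 ALDH-high and ZT12 ALDH-low cells, and none held a run of A and G longer than 7 bases.
chr6:40693617-40720167_F: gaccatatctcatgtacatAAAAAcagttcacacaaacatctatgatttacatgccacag
chr7:111530578-111539097_R: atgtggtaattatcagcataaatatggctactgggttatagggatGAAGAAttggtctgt
chr19:5834117-5835940_R: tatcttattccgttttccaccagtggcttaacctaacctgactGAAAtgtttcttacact
chr11:97457180-97487074_R: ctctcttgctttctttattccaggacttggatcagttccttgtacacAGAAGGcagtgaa
chr7:69008096-69070309_R: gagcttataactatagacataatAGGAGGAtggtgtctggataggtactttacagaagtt
The last sequence is the reverse-strand probe that covers nearly the same bases as the chr13 _F probe above, added because its levels were even.
chr13:73472571-73483846_R: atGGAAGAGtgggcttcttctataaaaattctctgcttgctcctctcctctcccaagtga

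The locus probes were detected nearly as often as other probes. Of the 4276, 57.5% passed the filter and 1829 (42.8%) were well above background on all 4 arrays, against 61.4% and 48.6% of the 52329 other non-control probes. RefSeq mRNA probes passed in 70.0% of cases and RefSeq noncoding RNA probes in 37.8%. The remaining 1817 locus probes did not pass: 284 were well above background on 1 array and 1533 on none. Just inside the threshold, the 329 probes detected on 2 arrays had a median brightest signal of 31.0 (15.6 to 1080), and just outside it the 284 detected on 1 array had 20.3 (14.1 to 54.6).

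Over all probes, detection was nearly alike on the 2 strands. Of 2143 _F probes 1207 passed (56.3%), and of 2132 _R probes 1252 passed (58.7%). Among the 812 loci with probes of both suffixes, only _R passed in 192 and only _F in 125. Among the 19 autosomes, the share that passed ran from 48.3% on chromosome 13 (126 of 261) to 63.1% on chromosome 17 (157 of 249). Longer loci were detected somewhat more often. The share was 49.7% of 1105 probes to loci under 2 kb and 62.8% of 1112 probes to loci over 25 kb, over lengths from 62 to 538251 bases (median 10701). For 286 of the 2304 detected names (12.4%) the array also held a RefSeq transcript probe positioned inside the locus, on the same strand in 149, so these loci were not free of annotated transcripts.

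Detection differed between arrays. At ZT0, 56.4% of locus probes were well above background in ALDH-low and 55.4% in ALDH-high cells, against 58.8% and 58.6% of all probes. At ZT12 the shares were 52.1% and 50.3%, against 58.5% and 53.8%. Of the 329 probes detected on exactly 2 arrays, 136 were seen on the position 1_2 pair and 96 on the position 1_1 pair. The pairs that share a time or an ALDH arm gave 49 (both ZT0 arrays), 38 (both ALDH-low arrays), 6 (both ALDH-high arrays) and 4 (both ZT12 arrays). The same split was not counted over all probes, so it is not read as particular to the locus probes.

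On the 75th percentile scale the locus probes read lower in ALDH-high than ALDH-low cells at ZT0 and higher at ZT12, while centring each array on its median put both medians near 0, at 0.07 and 0.06. The median difference was -0.41 log2 units at ZT0 (quartiles -1.33 and 0.41) and 0.94 at ZT12 (quartiles -0.03 and 2.28). Over all 34574 probes tested the medians were -0.18 and 0.12, so the locus probes stood 0.23 below all probes at ZT0 and 0.81 above them at ZT12. In the comparisons of time, which use the same 4 arrays, the median was -0.90 for ZT12 minus ZT0 in ALDH-low cells and 0.52 in ALDH-high cells, against -0.27 and 0.15 over all probes. RefSeq noncoding RNA probes (n = 1900) gave -0.50 at ZT0 and 0.94 at ZT12, and RefSeq mRNA probes (n = 20752) gave 0.01 and -0.19. The medians of the locus probes thus lay closer to those of the annotated noncoding RNAs than to those of the mRNAs. With 1 array a side, none of these medians has a test.

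At ZT0, 815 locus probes (33.1%) were at least 2-fold lower in ALDH-high cells, where 29.0% of all probes were, and 316 (12.9%) were at least 2-fold higher, where 23.3% of all probes were. At ZT12, 1195 (48.6%) were at least 2-fold higher, against 28.2% of all probes, and 223 (9.07%) were at least 2-fold lower, against 20.8%. In ALDH-low cells 1158 probes were at least 2-fold lower at ZT12 than at ZT0 (47.1%, against 29.0% of all probes) and 230 higher (9.35%, against 20%). In ALDH-high cells 882 were higher at ZT12 (35.9%, against 29.3%) and 310 lower (12.6%, against 23.8%). The split between higher and lower depended on the scaling. With each array centred on its median in place of its 75th percentile, 540 were higher and 532 lower at ZT0 (33.3% and 18.6% of all probes), and 766 higher and 555 lower at ZT12 (17.0% and 43.1% of all probes). In ALDH-low cells that scaling gave 569 higher and 743 lower (38.2% and 16% of all probes), and in ALDH-high cells 544 and 540 (17.7% and 35.1%). Quantile normalization gave 414 higher and 640 lower at ZT0 (25% and 25.9% of all probes), and 865 and 369 at ZT12 (21.9% and 26.2%). By time it gave 362 and 840 in ALDH-low cells (23.6% and 22.5%) and 676 and 411 in ALDH-high cells (24.7% and 26.2%). Median centring moved the median of all probes to 0.30 at ZT0 and -0.75 at ZT12. The gap between locus probes and all probes is by construction the same under both centrings, and was -0.07 at ZT0 and 0.57 at ZT12 after quantile normalization. At ZT0 it was -0.12 with 1 probe per name, -0.03 with normexp and quantile normalization and -0.01 with no background filter, so the ZT0 gap was small under several settings. At ZT12 these settings gave 0.66, 0.29 and 0.60.

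The 2 ALDH differences ran against each other from probe to probe. Of 2459 locus probes, 728 (29.6%) were at least 2-fold lower in ALDH-high cells at ZT0 and at least 2-fold higher at ZT12, a pattern of 17.9% of all probes. The reverse held for 178 (7.24%), against 17.1% of all probes. This split depended on the scaling: with median centring the counts were 443 and 415, against 9.43% and 30.2% of all probes. Across the 2459 probes, Pearson's r between the differences at ZT0 and ZT12 was -0.81, a description over probes that share the same 4 arrays. For 1387 locus probes both position 1_1 arrays read above both position 1_2 arrays (56.4%, against 43.7% of all probes), and for 504 the order was opposite (20.5%, against 36.0%). Of the 2459 probes, 630 passed on 2 or 3 arrays only and so had to differ somewhere. Over the 1829 detected on all 4 arrays the medians were -0.33 at ZT0 and 0.89 at ZT12.

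**Figure D1:**
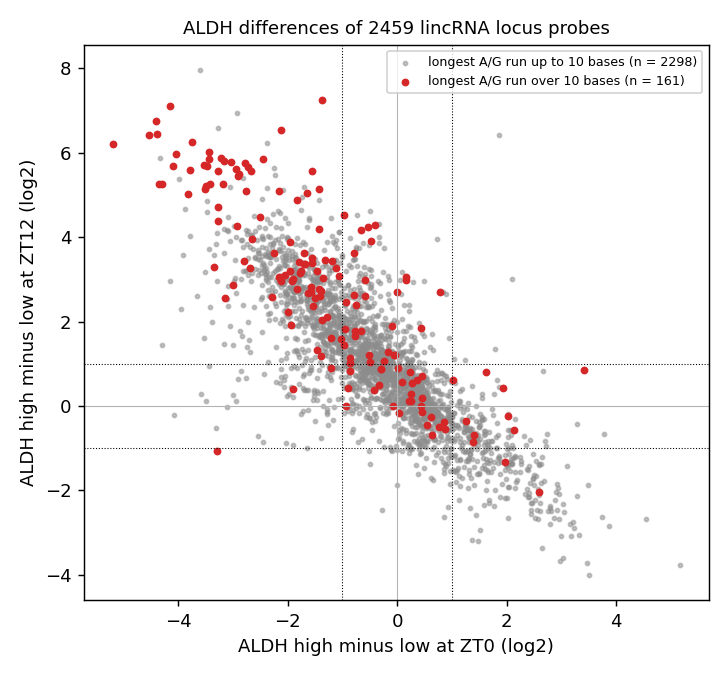
Each point is 1 of 2459 lincRNA locus probes, with the ALDH-high minus ALDH-low difference at ZT0 on the x axis and at ZT12 on the y axis (both log2), and dotted lines at 2-fold. The cloud slopes down from upper left to lower right (r = -0.81), and the 161 probes with a run of A and G over 10 bases, in red, lie mostly at the upper left.

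On the 75th percentile scale the signs were the same on all 19 autosomes and both strands. The median over a chromosome's locus probes lay between -0.74 (chromosome 10, n = 112) and -0.15 (chromosome 16, n = 81) at ZT0, and between 0.70 (chromosome 11, n = 105) and 1.48 (chromosome 8, n = 156) at ZT12. The _F probes had medians of -0.39 at ZT0 and 0.92 at ZT12, and the _R probes -0.45 and 0.95.

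The differences varied with signal. Locus probes with a mean level more than 3 log2 units below the 75th percentile (n = 717) had medians of -0.63 at ZT0 and 1.31 at ZT12. Those above the 75th percentile (n = 437) had 0.28 and 0.15. Within the same bands of mean level, the locus probes exceeded RefSeq mRNA probes at ZT12 throughout. In the lowest band the medians at ZT12 were 1.31 and 0.53 (n = 3461 mRNA probes), and in the highest 0.15 and -0.55 (n = 8870). At ZT0 the lowest bands were alike, at -0.63 for both classes, and in the highest band the locus probes read 0.28 and the mRNA probes 0.53.

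**Figure D2:**
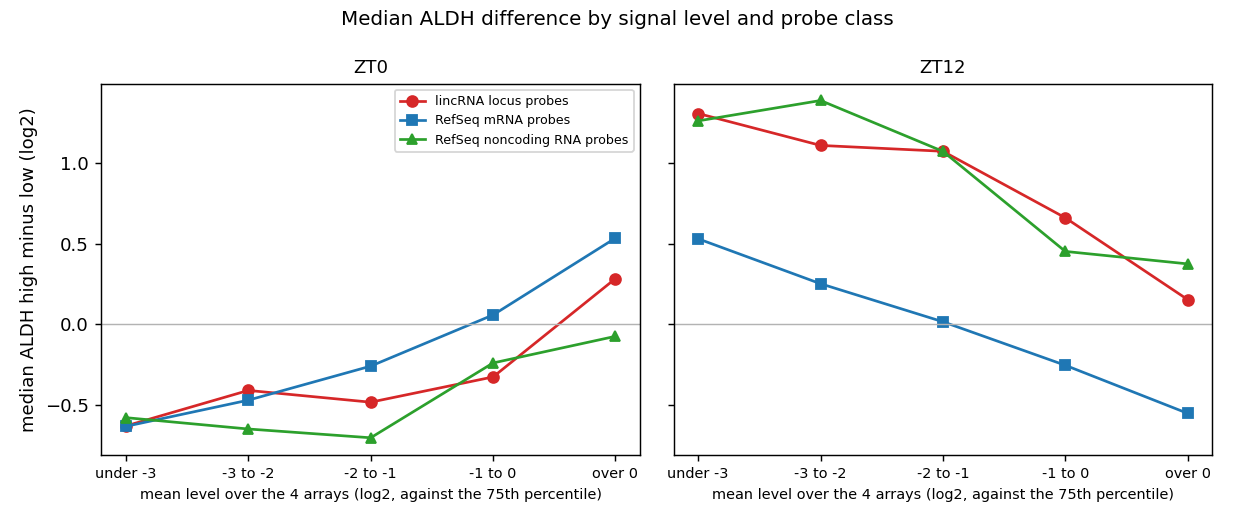
Median ALDH-high minus ALDH-low difference (log2) at ZT0 (left) and ZT12 (right) for probes in 5 bands of mean level over the 4 arrays, by probe class. At ZT12 the locus probes fall from 1.31 in the dimmest band to 0.15 in the brightest, and stay above the mRNA probes in each.

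The listed loci with the highest ALDH-by-time values were high on 1 diagonal of the design. The chr4:33375464-33377138_R probe (chr4:33376044-33376103) had levels of 3.37 in ZT0 ALDH-low, -1.83 in ZT0 ALDH-high, -1.21 in ZT12 ALDH-low and 5.0 in ZT12 ALDH-high cells. Its ALDH difference was -5.20 at ZT0 and 6.21 at ZT12. The chr5:125205454-125209470_F probe (chr5:125207200-125207259) had levels of 3.27, -0.87, -1.59 and 5.52 in the same order, which gave -4.15 and 7.11. For each probe both position 1_1 arrays lay above both position 1_2 arrays. T and NK cell, B cell and macrophage markers were high on the same arrays, with list medians of -3.01, -2.48 and -2.37 at ZT0 and 5.06, 5.59 and 2.25 at ZT12. Hba-a1 had differences of -7.85 and 6.16, and the part of these cells in the result was not tested.

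The other 3 of the 5 highest had the same shape. The chr1:173250734-173259306_R probe (chr1:173256474-173256533) read 1.79, -2.63, -3.07 and 3.68, and its differences were -4.41 at ZT0 and 6.75 at ZT12. The chr4:98943050-98959998_R probe (chr4:98945330-98945389) read 1.71, -2.82, -2.62 and 3.79, with differences of -4.53 and 6.41. The chr13:73472571-73483846_F probe (chr13:73479856-73479915) read 3.87, -0.51, -0.25 and 6.21, with differences of -4.39 and 6.45. The nearest genes with a tested RefSeq mRNA probe had smaller differences. Pnrc1, which encodes a nuclear receptor coactivator and lay 42517 bases from the first locus, had differences of 2.65 and -2.11. Dedd, a death effector domain gene 11840 bases from the chr1 locus, had 1.27 and -1.32. Atp6v0a2, a subunit of the vacuolar proton pump 630 bases from the chr5 locus, had 0.77 and -0.74. Atg4c, an autophagy protease 16627 bases from the second chr4 locus, had 0.90 and -0.31, and Mrpl36, a mitochondrial ribosomal protein 2997 bases from the chr13 locus, had -0.16 and 0.44. The array also held a probe to the annotated transcript D630045M09Rik inside the chr13 locus.

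The 5 lowest had the opposite diagonal. The chr6:40693617-40720167_F probe (chr6:40719035-40719094) read -2.27, 2.90, 2.45 and -1.33, so its ALDH difference was 5.17 at ZT0 and -3.77 at ZT12. The nearest tested gene, Mgam, an intestinal maltase 85447 bases away, ran the same way at 3.37 and -2.42. The chr7:111530578-111539097_R probe (chr7:111530859-111530918) read -2.25, 1.63, 1.21 and -1.63, with differences of 3.88 and -2.84. Trim30a, a tripartite motif gene 21073 bases away, had 2.58 and -1.54. All 5 of these probes were high on the arrays where pan-leukocyte markers were high (median difference of that list 2.17 at ZT0 and -1.08 at ZT12). The neutrophil list had medians of 3.36 and -1.97, and the part of these cells was not tested.

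The end of the chr19:5834117-5835940_R locus (probe at chr19:5834543-5834602) lay 8183 bases from the nearer of 2 probes to Neat1, the noncoding RNA that scaffolds nuclear paraspeckles, on the same strand. Its probe read 1.39, 4.36, 4.39 and 0.71, with differences of 2.97 at ZT0 and -3.68 at ZT12. The Neat1 probes gave 2.45 and -2.67 (chr19:5844123-5844182), and 2.28 and -2.42 (chr19:5844378-5844437). Frmd8, the nearest tested mRNA at 15370 bases, had 1.57 and -1.46. On the opposite strand, the probes of chr19:5771425-5848475_F and chr19:5841103-5845579_F had smaller differences, 0.88 and -0.33 for the first and 1.09 and -0.68 for the second, which was detected on 3 arrays.

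The last 2 of the lowest were chr11:97457180-97487074_R (chr11:97484060-97484119) and chr7:69008096-69070309_R (chr7:69008343-69008402). The first read -2.30, 0.73, 1.42 and -2.18, with differences of 3.03 and -3.60, while the nearest gene, E130012A19Rik at 1766 bases, had -2.06 and 1.35. A probe to the annotated transcript 2410003L11Rik lay inside that locus. The second read -0.81, 2.35, 2.33 and -0.48, with differences of 3.16 and -2.81. Its nearest tested gene, Ndn, an imprinted growth suppressor, lay 424440 bases away and had -0.64 and 0.86.

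**Figure D3:**
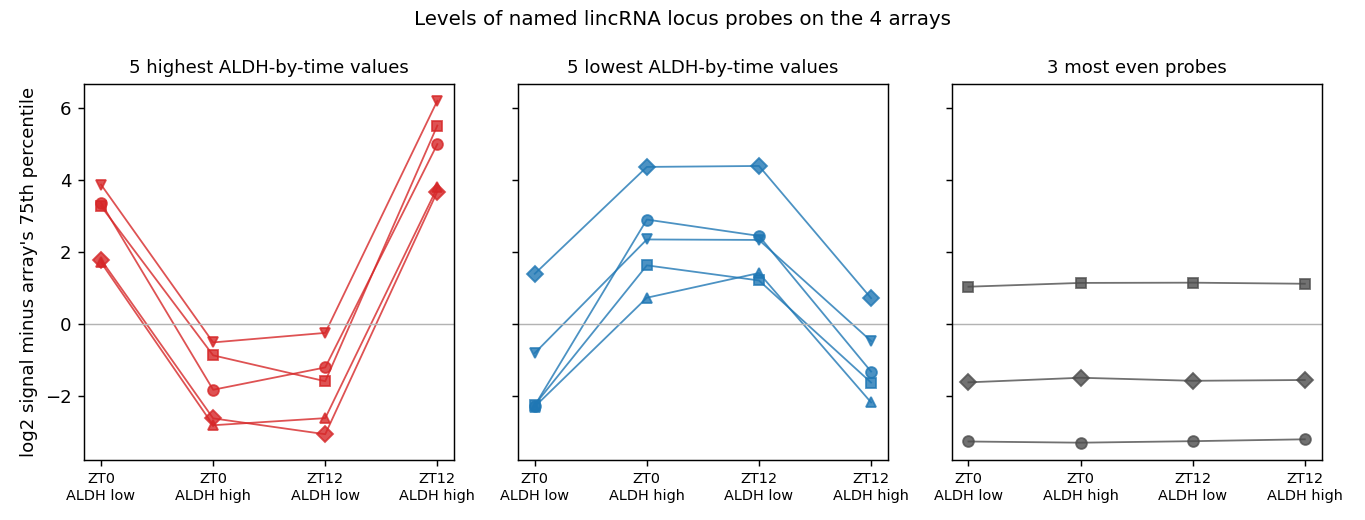
Level (log2 signal minus the array's 75th percentile) on the 4 arrays for the 5 named locus probes with the highest, the 5 with the lowest ALDH-by-time values and the 3 most even, 1 line each. The first group dips on the 2 middle arrays, the second peaks there, and the third is flat.

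Other locus probes were even across the arrays. The chr17:95255725-95272425_R probe read 1.03, 1.14, 1.15 and 1.12, the chr7:57116623-57121735_F probe -3.27, -3.30, -3.26 and -3.21, and the chr6:82268824-82272977_R probe -1.62, -1.50, -1.58 and -1.56. The 3 brightest named probes differed by less than 2-fold between any pair of arrays. The chr14:78924115-78938125_F probe read 7.57, 8.11, 7.37 and 7.65, the chr11:22681800-22707775_R probe 7.61, 7.22, 7.38 and 7.81, and the chr17:17481706-17482457_R probe 6.96, 7.96, 7.60 and 7.15. Signals of different probes are not compared, since each probe has its own response.

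Few loci kept an ALDH difference at both times, at shares near those of all probes or below them. An ALDH-high excess of at least 2-fold at ZT0 and at ZT12 was found for 5 of 2459 probes (0.203%, against 0.150% of all probes), and a deficit for 1 (0.0407%, against 0.367%). Detected on all 4 arrays were chr8:124569775-124639500_R, with levels of -0.71, 0.53, -2.36 and -1.28 (differences 1.23 and 1.08), and chr5:113920850-113950200_F, with -3.50, -2.47, -3.74 and -2.63 (1.03 and 1.11). The others were detected on fewer arrays and are named after their values were seen. The chr17:3103174-3114885_F probe had differences of 1.78 and 1.35, and the chr16:44720170-44723911_R probe 1.85 and 6.43, while the fifth, on chromosome 18, from which the naming rule takes no probe, was detected on 2 arrays and had 2.10 and 2.999. The 1 probe lower at both times, chr14:105988692-105994145_F, was detected on 2 arrays and had -3.29 and -1.06.

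Few loci differed by time in both arms. ZT12 was at least 2-fold below ZT0 in both arms for 7 locus probes (0.285%, against 0.211% of all probes) and above it for 0 (against 0.0347%). Of the 7, 4 were detected on all 4 arrays. The chr14:55671783-55680316_R probe read -1.56, -1.42, -4.16 and -2.87, so ZT12 minus ZT0 was -2.60 in ALDH-low and -1.46 in ALDH-high cells. The chr6:140904129-140992655_F probe read -1.24, -0.30, -3.43 and -1.81 (-2.19 and -1.51). The chr4:88604248-88645948_R probe, 107688 bases from the interferon gene Ifna1, read -2.65, -2.02, -3.71 and -3.14 (-1.06 and -1.12), and the chr8:124569775-124639500_R probe had -1.66 and -1.81. For each of these both ZT12 levels lay below both ZT0 levels.

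In limma's additive fit over ALDH arm and time, with 1 residual degree of freedom and all probes sharing 1 spread, no locus probe passed an adjusted p of 0.05 for ALDH or for time (0% of the 34574 probes passed either). The standard error of each difference was 1.501 log2 units. The shared spread is the ALDH-by-time divergence, which coincides with array position. The lack of calls therefore does not show that arms or times were alike. At an unadjusted p under 0.05 there were 1 locus probe for ALDH and 0 for time, among 9 and 2 of all probes. For chr8:124569775-124639500_R, limma's Benjamini-Hochberg adjusted p was 1.0 for ALDH (mean difference 1.16) and 1.0 for time (mean difference -1.73).

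Some probes were detected on 1 side only and have bounds on the pair means. Such probes had to differ to be detected so, and here they are counted once per name and without chromosome 18. The same counts were not taken over all probes, so these are not read as particular to the locus probes. Of the 5 well above background on both ALDH-high arrays and neither ALDH-low array, chr16:44720170-44723911_R was at least 3.72-fold brighter in ALDH-high cells and chr8:37582187-37621987_F at least 2.70-fold. The latter rests mostly on ZT12, where its difference was 2.95, against 0.29 at ZT0. Of 36 with the opposite detection, chr4:88745770-88774130_R was at least 2.68-fold and chr3:10088209-10089038_F at least 2.41-fold brighter in ALDH-low cells. The latter differed at ZT0 alone, with ALDH-high minus ALDH-low at -2.95 there and 0.11 at ZT12. On the time axis, 40 were detected on both ZT0 arrays only, led by chr7:71222899-71230614_R (at least 3.17-fold brighter at ZT0) and chr15:79795261-79796945_R (at least 2.58-fold). For chr15:79795261-79796945_R, ZT12 minus ZT0 was -3.26 in ALDH-low but -0.21 in ALDH-high cells. On both ZT12 arrays only there were 3, led by chr1:134171292-134176062_R (at least 1.60-fold) and chr7:137486825-137498500_F (at least 1.43-fold). For the first of these ZT12 minus ZT0 was 0.07 in ALDH-low and 2.03 in ALDH-high cells, and for the second -0.73 and 3.53. Both pair means thus rest on the ALDH-high arm. A bound sets the bright pair's mean level against the higher of the dim signal and the lowest signal well above background on each dim array.

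The size of the differences followed the longest run of A and G in the probe. This feature was chosen after the values were seen, and its relation is a description with no test. The 1695 locus probes with a longest run of up to 6 bases had medians of -0.30 at ZT0 and 0.80 at ZT12. With 11 to 12 bases (n = 78) the medians were -1.21 and 2.52, with 13 to 15 bases (n = 57) -1.50 and 2.99, and with 16 or more (n = 26) -1.91 and 4.63. The median levels of those 26 probes were -0.68, -2.40, -3.10 and 0.92 in the order of arrays used above. The pattern of at least 2-fold lower at ZT0 and higher at ZT12 held for 18 of the 26 (69.2%) and 446 of the 1695 (26.3%).

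Runs of C and T gave the opposite order. Locus probes with C and T runs of up to 6 bases (n = 1410) had medians of -0.62 at ZT0 and 1.21 at ZT12, and those with 16 or more (n = 41) had 0.34 and 0.16. Among the 50 locus probes with the highest ALDH-by-time values (7.66 to 11.58), 36 held an A and G run over 10 bases (72.0%), against 161 of all 2459 (6.55%) and 1 of the 50 lowest. Such runs were about as common in the other tested probes, 1895 of 32115 (5.90%).

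The same order was seen outside the locus probes. RefSeq mRNA probes with an A and G run of 16 or more bases (n = 177) had medians of -1.02 at ZT0 and 1.60 at ZT12, against 0.05 and -0.24 for those of up to 6 bases (n = 13392). RefSeq noncoding RNA probes went from -0.41 and 0.80 (n = 1260) to -1.90 and 3.52 (n = 22). Without the 161 probes with a run over 10, the locus medians were -0.36 at ZT0 and 0.86 at ZT12, against -0.15 and 0.09 over all probes with the same limit.

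**Figure D4:**
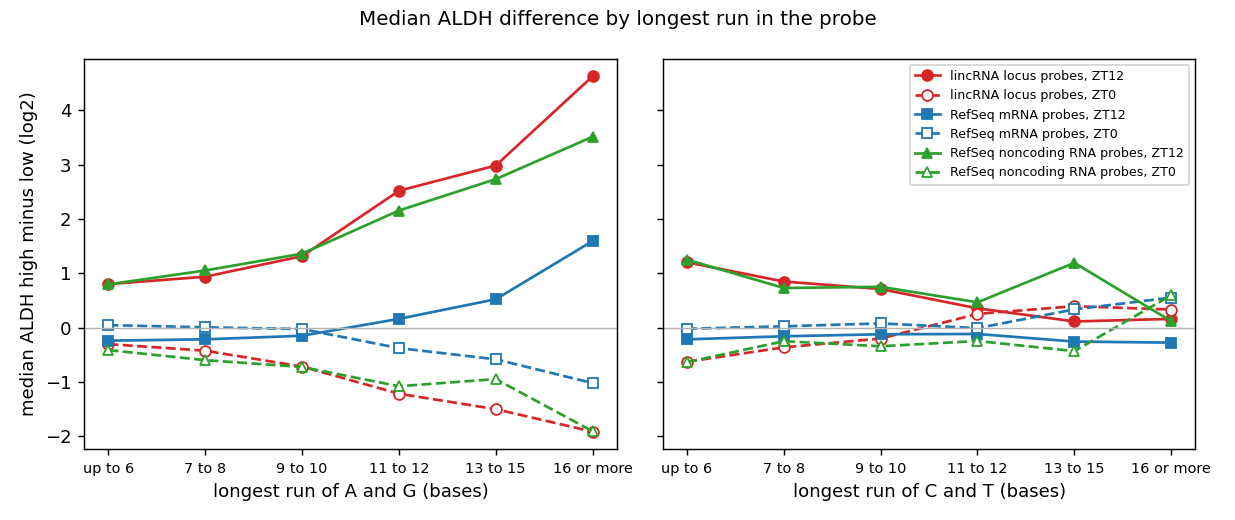
Median ALDH-high minus ALDH-low difference (log2) at ZT12 (solid) and ZT0 (dashed) by the longest run of A and G (left) or of C and T (right) in the probe, for 3 probe classes. For locus probes the ZT12 median climbs from 0.80 to 4.63 and the ZT0 median drops from -0.30 to -1.91 along the A and G runs, with a shallower opposite slope along the C and T runs.

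Short repeats were searched in the probe strand as given, each beside its reverse complement. AGAGAGAG stood in 16 locus probes (0.651%) and in 0.346% of the other tested probes of the same length. The median ALDH-by-time value, the ZT12 difference minus the ZT0 difference, was 7.41 in those 16 and 7.36 in the 111 others. CTCTCTCT stood in 17 locus probes (0.691%, against 0.302%), with medians of -0.79 and -0.22. GAGGAGGAG stood in 8 (0.325%, against 0.177%), with 8.85 and 5.96, and CTCCTCCTC in 6 (0.244%, against 0.0623%), with -0.87 and -1.62. GGAAGGAA stood in 8 (0.325%, against 0.277%), with 4.87 and 0.99, and TTCCTTCC in 17 (0.691%, against 0.283%), with 0.86 and 0.17. ACACACAC stood in 16 (0.651%, against 0.492%), with 4.38 and 4.22, and GTGTGTGT in 21 (0.854%, against 0.701%), with -0.96 and -0.96. In each of these 4 pairs the locus probes with the A-containing repeat had the higher median. These repeats were chosen after the values were seen, a probe was counted once however often it held one, and a probe can hold more than 1 of them.

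The differences on the 2 strands of a locus were only weakly related. Probes of both suffixes existed for 812 of 3094 loci. Both passed in 376, only _F in 125, only _R in 192 and neither in 119. Over the 376, Pearson's r between the _F and _R differences was 0.11 at ZT0 and 0.06 at ZT12, described over loci on the same 4 arrays. The signs matched in 213 (56.6%) at ZT0 and 246 (65.4%) at ZT12. At ZT12, 82 loci were at least 2-fold higher in ALDH-high cells on both strands and 20 were at least 2-fold higher on 1 strand and at least 2-fold lower on the other. In the 27 loci where only the _F probe held an A and G run over 10, the ZT12 median was 3.27 on _F and 0.14 on _R. In the 25 where only the _R probe did, it was 3.01 on _R and 0.85 on _F.

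**Figure D5:**
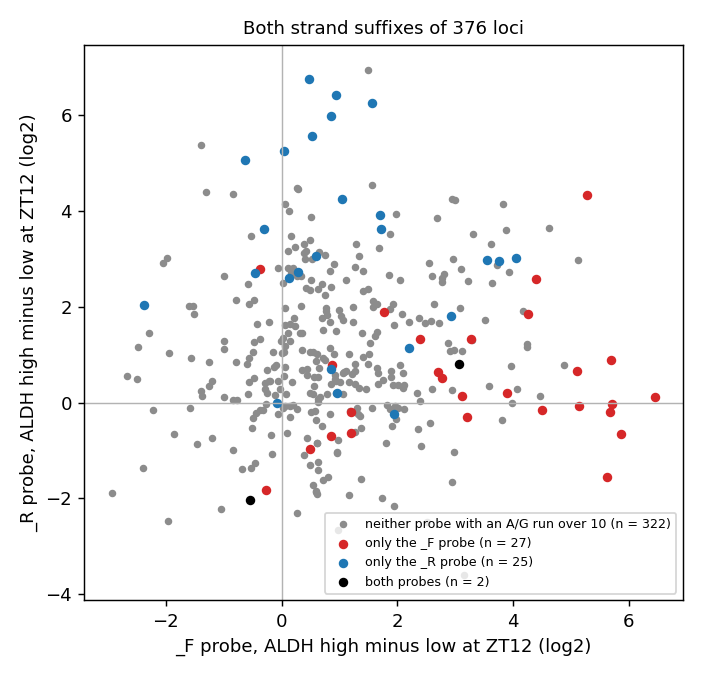
ALDH-high minus ALDH-low difference at ZT12 (log2) of the _F probe (x axis) and the _R probe (y axis) of 376 loci. The 27 loci with an A and G run over 10 bases on the _F probe only extend to the right, and the 25 with one on the _R probe only extend upwards.

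Some opposite-strand probes overlap. There were 60 such pairs with at least 30 shared bases of 60, and their ZT12 differences had the same sign in 38. The _F and _R probes of chr13:73472571-73483846 shared 58 bases. The _F probe read 3.87, -0.51, -0.25 and 6.21, and the _R probe, printed with it above, 6.46, 6.86, 6.39 and 6.51. In 10 pairs only 1 probe held an A and G run over 10, and that probe had the higher ALDH-by-time value in 9 of them. Of the loci whose 2 strands were brightest in sum, chr12:73838608-73862621 was even on both, with 6.27, 6.59, 6.49 and 6.64 on _F and 6.24, 7.15, 6.58 and 6.27 on _R. On chr11:22681800-22707775 the _F probe read 0.95, 0.14, 0.16 and 1.18 beside the even _R probe given above. On chr7:108209996-108216032 the _F probe read 2.39, 2.02, 1.99 and 2.47 and the _R probe 7.30, 7.24, 7.28 and 7.48.

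Probes to 1 strand of 1 locus did not always match. For 139 names with several passing probes (294 probes), all probes had the same sign at ZT12 in 98, and the median gap between the highest and lowest was 0.95 log2 units. These probes share a locus and are not replicates of a condition.

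The differences of loci and of their nearest protein-coding genes were weakly related. The nearest tested RefSeq mRNA probe lay a median of 29032 bases from the locus, and Pearson's r over 2304 names and 1212 genes was 0.18 at ZT0 and 0.13 at ZT12. For the 1451 names within 50 kb it was 0.19 and 0.15, and there the neighbours' medians were 0.25 at ZT0 and -0.47 at ZT12 where the loci had -0.31 and 0.84. With the neighbour on the same strand within 50 kb (n = 761) r was 0.23 at ZT0, and on the other strand (n = 690) 0.13. These are descriptions over loci that share arrays and in part neighbours.

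Several loci enclosed probes to known noncoding RNAs. Of a list of 25 such RNAs, 18 were on the array and passed the filter. At ZT0, 6 were at least 2-fold higher and 7 lower in ALDH-high cells, and at ZT12 7 higher and 5 lower, with medians of -0.27 and -0.35. Over all probes, 23.3% were higher and 29.0% lower at ZT0, and 28.2% and 20.8% at ZT12. Meg3, an imprinted RNA of the Dlk1 region, had differences of -2.44 and 3.36, and Kcnq1ot1, which silences imprinted genes in cis, -1.01 and 2.98. Mir22hg, the host of miR-22, had 2.62 and -2.42.

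Locus and gene probes could be set side by side for 6 of these RNAs, Neat1 among them. Tug1, a broadly made lincRNA, had gene-probe differences of 1.93 at ZT0 and -2.09 at ZT12. The same-strand probe of chr11:3538125-3554450_R had 0.65 and -0.22, and the opposite-strand probe of chr11:3538125-3554450_F 1.26 and -0.44. Pvt1, the neighbour of Myc, had -2.37 and 0.78, the probe of chr15:61984389-62102500_F -2.24 and 2.05, and that of chr15:61984389-62102500_R, detected on 3 arrays, -1.51 and 2.56. For Tug1 and Pvt1 the locus probes thus had the signs of the gene probes.

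Other pairs differed. Gas5, a host of small nucleolar RNAs, had -0.16 and -0.39 on its gene probe, while the same-strand chr1:162965309-162970704_F probe, detected on 3 arrays, had 1.29 and -1.94. The opposite-strand chr1:162965309-162970704_R probe, detected on all 4 arrays, had -0.35 and 1.04. Terc, the RNA template of telomerase, had 1.39 and 1.25, while chr3:96215885-96218756_R on the same strand had -0.89 and 0.42 with an A and G run of 11 bases in its probe. Snhg3, another snoRNA host, had 0.23 and -0.74, and the opposite-strand chr4:131905739-131910814_F probe 1.15 and 0.34.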

How the data were processed

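Total RNA of each sorted fraction was amplified to cRNA and labelled with Cy3, per the labels' protocols. Scans were read with Agilent Feature Extraction 10.7.1.1 and positions are in mm9, per the file headers; 9.5.1.1 is the version in the submitters' processing notes. The processed signal deposited for each array is a linear intensity, background-subtracted and detrended within the array but not scaled between arrays, per the file headers. The authors' series table holds intensity values whose sorted values match between columns within 0.0388%, so it had been quantile normalized, with software not given in the sources.

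From these, control and outlier spots were left out, spots of 1 probe averaged on the log2 scale, and each array's 75th percentile over non-control spots subtracted. Probes well above background on 2 or more arrays entered an additive fit of ALDH arm and time (R 4.3.3, limma 3.58.1, eBayes after lmFit). Its two-sided p-values were adjusted by the Benjamini-Hochberg method across 34574 probes, and it was tested on simulated data. Counts and plots used Python 3.11.15, pandas 2.3.3 and matplotlib 3.10.9. With 1 array a group there is no replicate error. In the additive fit, p-values set each effect against the ALDH-by-time divergence pooled over all probes, which coincides with array position. The number of arrays limits the precision. The locus probes, gene lists and rules were chosen with earlier results of these data known. Probes named by rule were detected on all 4 arrays, off chromosome 18, 1 per name. They were up to 5 highest and 5 lowest of those at least 2-fold in 1 direction in both ALDH or both time comparisons, the 5 highest and 5 lowest ALDH-by-time values, the 3 most even, the 3 brightest and the 4 brightest loci with both strands, with 2 bounds a side from probes detected on that side only. The alternatives were other scalings, background corrections, filters and covariates. A further marker list is not reported here. Gene symbols were taken from the array's own annotation.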

Additional observations from a re-analysis of the deposited data

Results flagged for a closer look

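On the 75th percentile scale the ALDH difference had opposite signs at ZT0 and ZT12. The median over the locus probes was -0.41 at ZT0 and 0.94 at ZT12, while with median centring both were slightly above 0, at 0.07 and 0.06. With 1 array a group the difference between the times was not tested, and it cannot be told apart from array position. The same contrast of sign held for each locus chosen for its ALDH-by-time value, which that choice fixes. The ZT0 and ZT12 values were -5.20 and 6.21 for chr4:33375464-33377138_R, -4.15 and 7.11 for chr5:125205454-125209470_F, and -4.41 and 6.75 for chr1:173250734-173259306_R. They were -4.53 and 6.41 for chr4:98943050-98959998_R and -4.39 and 6.45 for chr13:73472571-73483846_F. In the other direction they were 5.17 and -3.77 for chr6:40693617-40720167_F, 3.88 and -2.84 for chr7:111530578-111539097_R, and 2.97 and -3.68 for chr19:5834117-5835940_R. They were 3.03 and -3.60 for chr11:97457180-97487074_R and 3.16 and -2.81 for chr7:69008096-69070309_R.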

How the results depend on the processing

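No paired analysis was possible because each group had 1 array and so no replicate numbers to pair; the additive fit already compares the arms within time and slide. The limma fits called 0 locus probes under every alternative fitted to all 4 arrays. With array position as a term in place of the other factor, 156 locus probes for ALDH and 62 for time had an unadjusted limma p under 0.05. Over all 34574 probes the numbers were 2786 and 565. Fits with any 1 array left out held 1 factor alone and left 1 array in a group, so their p-values are not given. Counts below are of locus probes at least 2-fold higher, then lower. Shares of all probes are in brackets or above for median centring, no filter and the 2 alternatives added after seeing the data. For quantile normalization they are given in part. They are not given for the authors' table, normexp with quantile normalization, or detection on all 4 arrays. Counts without such a share are not read as particular to the locus probes. Centring on the median gave 540 and 532 at ZT0, 766 and 555 at ZT12, 569 and 743 for time in ALDH-low cells, and 544 and 540 in ALDH-high cells. It also gave 10 lower in ALDH-high cells at both times (1.96%) and 2 higher at ZT12 in both arms (0.156%). Lower at ZT0 but higher at ZT12 were 443 (9.43%), and 415 were the reverse (30.2%). With it the median difference reversed to 0.070 at ZT0 and to -0.0099 for time in ALDH-high cells, since the 2 scalings differ by a constant per array. Quantile normalization and the authors' table moved the lower count at ZT12 (369 and 374), the higher count for time in ALDH-low cells (362 and 369), higher at ZT0 but lower at ZT12 (268 and 272), lower at both times (11 each) and higher in both arms (2 each). Normexp with an offset of 50 and quantile normalization, changed together, gave 170 and 290 at ZT0, 446 and 120 at ZT12, 120 and 401 for time in ALDH-low and 346 and 166 in ALDH-high cells, 253 and 97 for the opposite patterns, and 0 and 0 for ALDH at both times and 0 lower in both arms. Detection on all 4 arrays left fewer probes: 210 higher at ZT0, 144 lower at ZT12, 152 higher in ALDH-low and 204 lower in ALDH-high cells by time, 2 and 0 for ALDH at both times and 4 lower in both arms. No filter raised the number of locus probes to 4276: 1394 were lower at ZT0 (28.5% of all probes were) and 2612 higher at ZT12 (47.9% of all probes were). By time 2154 were lower in ALDH-low cells (37.2%) and 2032 higher in ALDH-high cells (44.4%). Lower at ZT0 but higher at ZT12 were 1205 (19.4%). There were 61 and 2 for ALDH at both times (0.906% and 0.288%), and 8 and 28 for time in both arms (0.207% and 0.408%). For lower at both times, 2 alternatives added after seeing the data gave 5 (percentile over probes each once, 0.532%) and 0 (without A and G runs over 10, 0.384%). With 1 probe per name every count stayed within 1.5 times its main value, but the gap between the medians of locus probes and all probes went from -0.23 to -0.12 at ZT0 and from 0.37 to 0.22 for time in ALDH-high cells. The causes of these moves were not tested beyond what each alternative's construction shows.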
